A study of Mus musculus with 4 samples.

Results

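The Slit ligands and Robo receptors of the mouse are encoded by 7 genes, Robo1, Robo2, Robo3, Robo4, Slit1, Slit2 and Slit3, and all 7 were found by symbol among the 25265 genes of a count table of whole testis. Of these, 6 had enough reads to be tested and Robo2 did not. The testes came from C57BL/6 mice at postnatal day 56. The table holds 2 libraries labelled control and 2 labelled Ythdf2-vKO, made from total RNA depleted of ribosomal RNA. The series title speaks of germ cell-specific mutants of Ythdf2, which encodes a reader of the RNA mark N6-methyladenosine. The labels name no Cre driver, no deleted segment, no genotype of the controls beyond that word and no pooling of animals, and they do not say whether the libraries came from separate animals. P-values therefore measure the spread between these libraries, which may be technical. The family was chosen by symbol after results of the same genotype comparison were known, and it was picked on the fold change of Robo4, which had passed the test there. Its values below are therefore a description of what was measured.

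Slits are large secreted proteins that repel growing axons and migrating cells by binding Robo receptors on the cell surface. Robo1 and Robo2 are the main Slit receptors of neurons. Robo3 is a divergent member that acts in axons crossing the midline and binds the secreted protein NELL2 rather than Slit. Robo4 is known from blood vessels, where it is made by endothelial cells, binds UNC5B and stabilises the vessel wall. Inside the cell the receptors act on the actin skeleton through srGAP proteins, Ena/VASP proteins and ABL kinases. In the testis, NELL2 is known as a protein released by germ cells that reaches the epididymis through the lumen.

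Depth was similar in the 4 libraries, at 24862518 to 29561182 counts. Ythdf2 itself had 1193 and 1604 counts in the controls and 1774 and 1807 in the vKO-labelled ones, so it was not lower there, and groups are named by their labels. A count of the whole gene does not tell if a deleted segment was read. Levels are given in CPM, a count over the library total after TMM scaling, and a level per kilobase (kb) is CPM divided by the length of all annotated exons of the gene. Germ cell markers were abundant, as the tissue label implies, with all 10 listed genes tested and a summed level of 4913 to 6207 CPM.

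Robo4 and Robo3 were the members with the largest differences. They are neighbours on chromosome 9 and face each other tail to tail. In GRCm38, Robo4 (ENSMUSG00000032125) runs on the plus strand from 37401897 to 37415115, and Robo3 (ENSMUSG00000032128) runs on the minus strand from 37415669 to 37433246. The gap between their ends is 553 bases, and the GENCODE M21 annotation shows no other gene overlapping either. The bases just before each gene are shown because the pair is transcribed from opposite ends of the locus. They come from the RefSeq promoter table of GRCm38.p6, 5′ to 3′ on the strand of the gene, and stop at the first base that M21 counts as the gene. Capitals mark GGGCGG, the GC box bound by Sp1, on either strand. The Robo4 stretch is chr9:37401722-37401896 on the plus strand and the Robo3 stretch is chr9:37433247-37433425 on the minus strand.
Robo4: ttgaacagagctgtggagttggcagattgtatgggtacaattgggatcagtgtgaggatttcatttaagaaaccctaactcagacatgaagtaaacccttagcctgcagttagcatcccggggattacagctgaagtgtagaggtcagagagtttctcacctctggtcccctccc
Robo3: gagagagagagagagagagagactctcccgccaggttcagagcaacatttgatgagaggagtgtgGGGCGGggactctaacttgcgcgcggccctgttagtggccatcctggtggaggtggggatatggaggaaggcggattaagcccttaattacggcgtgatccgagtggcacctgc

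The starts of the pair differed in base composition. Over the full RefSeq window of 300 bases (250 before the RefSeq start and 50 after), Robo4 held 2 CpG dinucleotides at a GC content of 50.3%, and Robo3 held 17 at 63.3%. The median over 32851 mouse windows was 7 CpG and 52.7%. GGGCGG was found 3 times in the Robo3 window, 3 times in that of Slit2 and 6 times in that of Slit3, and in none of the windows of Robo4, Robo1 and Robo2. Of all windows, 35.7% held it on either strand. The ETS-type motif CCGGAAG, searched on both strands, was in no window of the 6 genes that matched the table, against 8.86% of all windows. These are matches of letters, and no binding was measured.

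Robo4 had 6 and 20 counts in the controls and 101 and 94 counts in the vKO-labelled libraries. The groups did not overlap, and the control libraries differed from each other more than the other pair did. In scaled units this was 0.462 ± 0.29 CPM in control and 3.63 ± 0.204 CPM in the vKO-labelled libraries (SD, n = 2 each). The ratio of the summed counts, scaled by library size, was 7.45, with a 95% interval of 4.93 to 11.7 that covers counting error only. The log2 fold change was 2.91 (SE 0.41), with a Benjamini-Hochberg adjusted p of 0.0166 in the quasi-likelihood test of edgeR. Without control replicate 2 the log2 fold change was 3.80.

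Robo3 had 3 and 7 counts in the controls and 46 and 37 counts in the vKO-labelled ones. Here too every library labelled vKO lay above both control libraries. The level went from 0.181 ± 0.0743 CPM to 1.54 ± 0.245 CPM (SD, n = 2 each), and the scaled ratio of the sums was 8.24, with a counting interval of 4.26 to 17.8. The log2 fold change of Robo3 was 3.03 (SE 0.56), at an adjusted p of 0.0404 in edgeR. The differences of Robo3 and Robo4 ranked 13 and 15 from the top among the 21132 genes tested. The call of Robo3 was lost without replicate 1 of the vKO-labelled libraries (log2 fold change 2.86, adjusted p = 0.23 in edgeR).

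So 2 of the 6 tested members were called higher, where 0.279% of all genes tested were, and 0 were called lower, where 0.114% were. The groups did not overlap for 3 of the 6, all of them higher, against 22.7% of all genes apart and higher and 22.6% apart and lower. The comparison is the one that chose the family, so nothing is read from that share. In the authors' deposited table the log2 fold change of Robo4 was 2.94 (SE 0.53) with an adjusted p of 3.04e-05. For Robo3 the authors' deposited table gave 3.07 (SE 0.77), an unadjusted p of 7.61e-05 and no adjusted p. Robo4 was the 1 member with an adjusted p under 0.05 there, as were 1.32% of the genes with an adjusted p in that table.

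**Figure D1:**
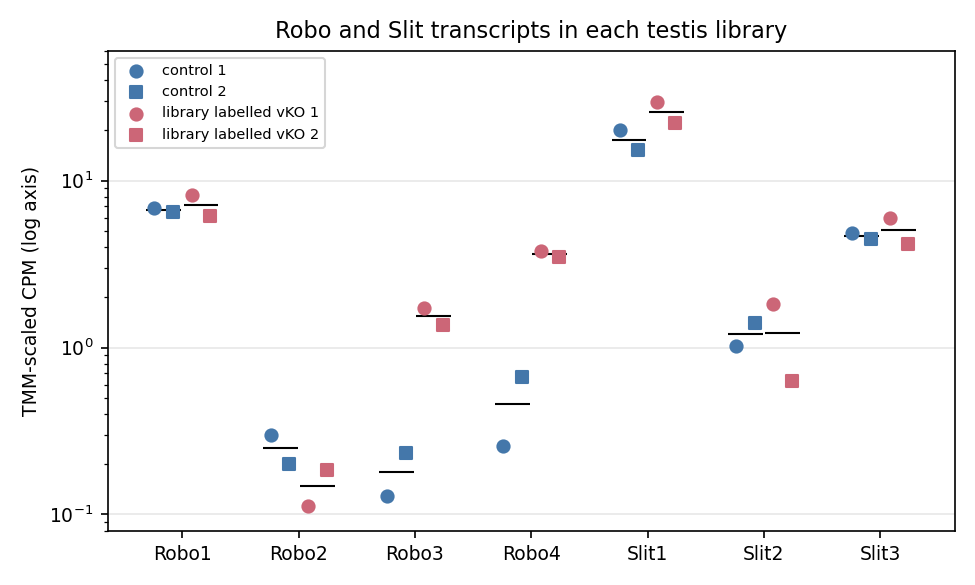
TMM-scaled CPM (log axis) of the 7 Robo and Slit genes in each library; blue points are control, red points are the vKO-labelled libraries, circles are replicate 1, squares replicate 2, and black lines are group means. Robo3 and Robo4 lie apart by genotype label, at 0.181 against 1.54 and 0.462 against 3.63 CPM, while the groups overlap for Robo1, Slit2 and Slit3.

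The pair kept nearly the same proportion in every library. Robo4 made up 66.7% of the counts of both genes in control replicate 1 (6 of 9 counts, exact binomial 95% interval 29.9% to 92.5%) and 74.1% in control replicate 2 (20 of 27, 53.7% to 88.9%). In the vKO-labelled libraries it made up 68.7% (101 of 147, 60.5% to 76.1%) and 71.8% (94 of 131, 63.2% to 79.3%). All 4 intervals overlap, and those of control are wide at this depth. HTSeq is named in the submitters' processing notes without its strand setting, so reads running past the end of one gene into the other could have been counted for the wrong one. This was not tested.

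No other gene around the pair was called. Within 250 kb on either side M21 lists 25 genes with the pair included, 15 of them tested. Of the other 13 tested genes 0 were called, and 0 had an unadjusted p under 0.05 in edgeR, which 14.1% of all genes had. Hepacam, a cell adhesion gene that ends 15.3 kb before Robo4, had levels of 30.2 and 22.2 CPM against 30.6 and 28.9 CPM in the vKO-labelled libraries (log2 fold change 0.19, SE 0.16). On the other side Msantd2, 56.1 kb beyond Robo3, had a log2 fold change of -0.03 (SE 0.15). Esam, an adhesion molecule of endothelial cells at 94.8 kb, had 12 and 24 counts in the controls and 17 and 28 in the vKO-labelled ones (log2 fold change 0.33, SE 0.52). Msantd2 and Esam were named for their place after their values were seen.

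**Figure D2:**
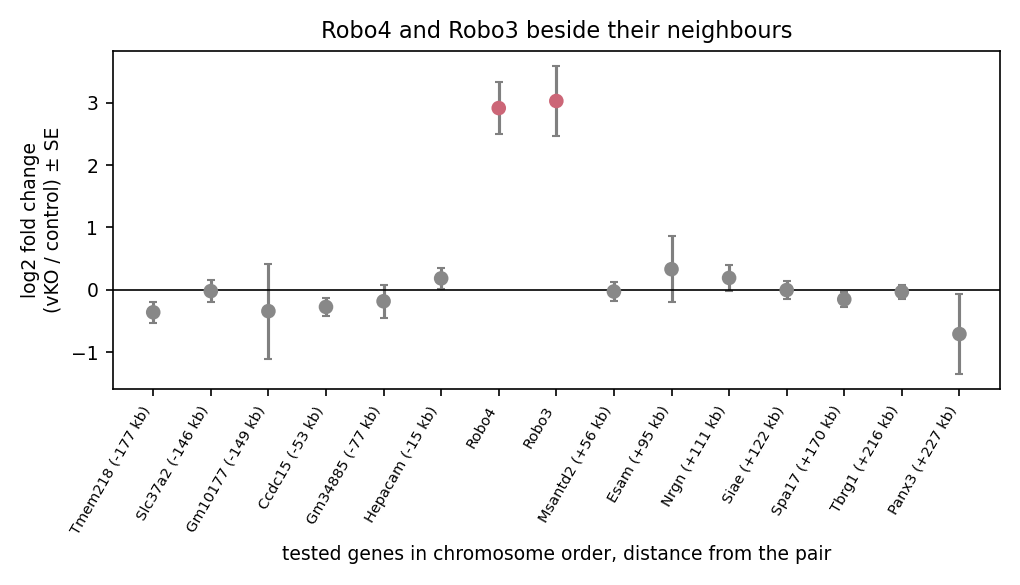
Log2 fold change (libraries labelled vKO over control) with its SE for the 15 tested genes within 250 kb of Robo4 and Robo3, in chromosome order; labels give the distance from the pair in kb. Robo4 (2.91) and Robo3 (3.03), in red, stand above neighbours such as Hepacam (0.19) and Msantd2 (-0.03).

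Neither of the other receptors was called, and Robo2 could not be tested. Robo1 (ENSMUSG00000022883, plus strand of chromosome 16, 72308306 to 73046095), a main Slit receptor, had 160 and 195 counts in the controls and 220 and 166 in the vKO-labelled ones. The groups overlapped, at 6.67 ± 0.241 against 7.18 ± 1.46 CPM (SD, n = 2 each), and the log2 fold change was 0.11 (SE 0.21, adjusted p = 0.879 in edgeR). Robo2 (ENSMUSG00000052516, minus strand of chromosome 16, 73891839 to 74411825), the second Slit receptor of neurons, had 7 and 6 counts in the controls and 3 and 5 in the vKO-labelled ones. With 21 counts in all it was left out by the filter on low counts, and a difference of Robo2 was not detectable at this depth. Both libraries labelled vKO lay below both controls for Robo2, at 0.112 and 0.185 against 0.299 and 0.2 CPM. The scaled ratio of the sums of Robo2 was 0.611, with a counting interval of 0.219 to 1.59.

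Among the ligands Slit1 was the most abundant. Slit1 (ENSMUSG00000025020, minus strand of chromosome 19, 41600257 to 41743665) had 468 and 456 counts in the controls and 792 and 602 in the vKO-labelled ones. Both libraries labelled vKO lay above both controls, at 25.9 ± 5.14 against 17.6 ± 3.4 CPM (SD, n = 2 each). The log2 fold change of 0.56 (SE 0.18) had an unadjusted p of 0.00955 and an adjusted p of 0.202 in edgeR, so it was not called. On leaving out 1 library, the log2 fold change of Slit1 ran from 0.34 (without vKO replicate 1) to 0.76 (without control replicate 1). Whether Slit1 was called depended on the setting, as given in the closing section. Slit1 is rich in G and C (58.9% of its longest transcript, above 93.8% of genes tested). Across all genes tested the log2 fold change ran with GC content at a Spearman correlation of 0.255, a description across genes of the same 4 libraries. With an offset for GC content Slit1 was not called either (log2 fold change 0.38, SE 0.16, adjusted p = 0.293 in edgeR). With that offset the log2 fold changes of Robo4 and Robo3 were 2.80 and 2.85.

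Slit2 and Slit3 showed no difference past their spread. Slit2 (ENSMUSG00000031558, plus strand of chromosome 5, 47983138 to 48307733), the ligand most studied in midline guidance, had 24 and 42 counts in the controls and 49 and 17 in the vKO-labelled ones. The libraries labelled vKO held both the highest and the lowest value, and the log2 fold change was 0.01 (SE 0.50, adjusted p = 0.996 in edgeR). The antisense gene 4930518C09Rik overlaps Slit2 and had 24 and 40 counts in the controls and 40 and 25 in the vKO-labelled ones. Since the strand setting is not given, reads of the pair cannot be told apart. Slit3 (ENSMUSG00000056427, plus strand of chromosome 11, 35121224 to 35708507) had 113 and 135 counts in the controls and 160 and 112 in the vKO-labelled ones. Its groups overlapped, and the log2 fold change was 0.12 (SE 0.25, adjusted p = 0.885 in edgeR).

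Levels per kb of exon set the members in order. In the control libraries Slit1 led at 3.38 and 2.57 CPM per kb, followed by Slit3 at 0.796 and 0.742 and Robo1 at 0.414 and 0.394. Next came Robo4 at 0.0484 and 0.126 CPM per kb and Slit2 at 0.0403 and 0.055, whose ranges overlapped. Robo3 at 0.0187 and 0.0341 and Robo2 at 0.0176 and 0.0118 CPM per kb were last, each on 7 or fewer counts a library. In the vKO-labelled libraries, Robo4 stood at 0.711 and 0.657 CPM per kb, above Robo1 at 0.497 and 0.372 and overlapping Slit3 at 0.984 and 0.684. Robo3 stood at 0.251 and 0.2 there, above Slit2 at 0.0719 and 0.0248 CPM per kb. Exon length counts every annotated isoform, 25433 bases for Slit2 and 16511 for Robo1 against 5302 for Robo4. Levels of genes with many isoforms are understated by it, so the order of Robo1 and Robo4 depends on the length used.

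By level per kb of exon, the make-up of the receptor pool differed accordingly. Of the summed Robo level per kb, Robo1 took 83% and 69.6% in the controls and 33.9% and 30% in the vKO-labelled libraries. Robo4 took 9.7% and 22.2% in control and 48.5% and 53% in the vKO-labelled libraries. Robo3 took 3.75% and 6.03% against 17.1% and 16.1%. The summed Robo level was 0.499 and 0.565 CPM per kb in control and 1.47 and 1.24 in the vKO-labelled libraries. Among the ligands Slit1 took 76.3% to 84.2% of the summed level in all 4 libraries. These shares restate the member values above. They depend on the exon length, 16511 bases for Robo1 and 5302 for Robo4, where the longest transcripts are 7563 and 4952 bases. In CPM, Robo1 stayed above Robo4 in the vKO-labelled libraries, at 8.21 and 6.15 against 3.77 and 3.48.

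Other genes of the pathway were taken from 4 lists of effectors, co-receptors, other binding partners and turnover factors, which together hold 40 genes, 39 of them tested. None was called in edgeR at an adjusted p under 0.05, with 0.393% of all genes called, and the smallest adjusted p was 0.135. At an unadjusted p under 0.05 there were 9, all higher in the vKO-labelled libraries, where 14.1% of all genes had such a p. The median log2 fold change was 0.15, against 0.00 over all genes tested, and 26 of 39 were above 0, as were 50.3% of all genes. The median was 0.044 without replicate 1 of the vKO-labelled libraries.

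Of the 19 effectors, 5 had an unadjusted p under 0.05, against 14.1% of all genes, and 0 were called in edgeR, against 0.393%. Their median log2 fold change was 0.10, ranging from 0.04 without control replicate 2 to 0.24 without control replicate 1. The effectors with the highest levels per kb were Vasp, which drives actin filament growth, Cdc42, a regulator of the actin skeleton, and Arf6, a GTPase of membrane traffic that Robo4 signalling restrains. Vasp stood at 91.5 ± 5.42 and 77 ± 0.713 CPM (SD, n = 2 each; log2 fold change -0.25, SE 0.12). Cdc42 stood at 75.8 ± 16 and 81 ± 5.20 CPM, within the spread of control. Arf6 stood at 28.7 ± 3.54 and 36.5 ± 6.77 CPM (log2 fold change 0.35, SE 0.16). The other 4 with a small unadjusted p, named after their values were seen, were Srgap3, Evl, Nck2 and Rac1, with log2 fold changes of 0.40, 0.41, 0.39 and 0.32. The remaining srGAP genes, which encode the GTPase-activating proteins that bind Robo tails, gave log2 fold changes of -0.31 for Srgap1 (SE 0.15) and 0.10 for Srgap2 (SE 0.13).

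The list of co-receptors and heparan sulphate genes had 12 tested members. Of these 4 had an unadjusted p under 0.05, against 14.1% of all genes, and none was called in edgeR, against 0.393%. Heparan sulphate chains hold Slit and Robo together, and dystroglycan, the product of Dag1, anchors Slit in basement membranes. Sdc4, Eva1c and Sdc3 had the highest levels per kb, with log2 fold changes of 0.33 (SE 0.13), -0.04 (SE 0.15) and -0.14 (SE 0.16). Dag1 had 796 and 765 counts in the controls and 1391 and 1101 in the vKO-labelled ones (log2 fold change 0.64, SE 0.17, adjusted p = 0.135 in edgeR). Gpc1, a cell-surface proteoglycan that binds Slit, had 97 and 132 counts against 188 and 196 (log2 fold change 0.74, SE 0.21, adjusted p = 0.16 in edgeR). Hs6st1, a sulphotransferase of heparan sulphate, had a log2 fold change of 0.60 (SE 0.21). The groups did not overlap for Dag1, Gpc1 and Hs6st1, named after their values were seen, as for 45.3% of all genes tested.

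Of the other partners of the Robo proteins 4 of 5 were tested, with a median log2 fold change of -0.03 (-0.09 to 0.06 over the alternatives run). In edgeR 0 were called and 0 had an unadjusted p under 0.05, against 0.393% and 14.1% of all genes. Nell2, the ligand of Robo3, had 676 and 858 counts in the controls and 802 and 685 in the vKO-labelled ones, or 28.7 ± 0.213 against 27.7 ± 3.23 CPM (log2 fold change -0.06, SE 0.14). Cdh2, the N-cadherin gene, had a log2 fold change of -0.21 (SE 0.14), and Flrt3, a Robo1 partner, of 0.00 (SE 0.28). Unc5b, the partner of Robo4, had 25 and 55 counts in the controls and 47 and 50 in the vKO-labelled ones (log2 fold change 0.30, SE 0.38). Of the 4 turnover genes none had an unadjusted p under 0.05 or was called in edgeR. Ndfip1, Adam10 and Ndfip2 gave log2 fold changes of 0.21, 0.32 and 0.00.

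Factors reported at the ROBO4 promoter were also read. Of 7 listed genes all were tested and none was called in edgeR, against 0.393% of all genes. Sp1, Gabpa and Gabpb1, with the highest levels per kb, had log2 fold changes of 0.10, 0.04 and 0.22. Fli1, an ETS factor of endothelial and blood cells, was the 1 gene with an unadjusted p under 0.05, against 14.1% of all genes. It had 1 and 12 counts in the controls and 28 and 18 in the vKO-labelled ones (log2 fold change 1.84, SE 0.73, adjusted p = 0.282 in edgeR). It was named after its values were seen.

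The 3 other families of guidance cues gave 0 called genes in edgeR, against 0.393% of all genes tested. At an unadjusted p under 0.05, which 14.1% of all genes had, were 3 of 12 netrin-family genes (1 higher, 2 lower), 10 of 27 semaphorin-family genes (9 higher, 1 lower) and 5 of 19 ephrin-family genes (4 higher, 1 lower). Their median log2 fold changes were -0.03, 0.34 and 0.32, and over the alternatives run these medians ranged from -0.15 to 0.08, from 0.24 to 0.47 and from 0.19 to 0.49. Sema7a, a membrane-anchored semaphorin, had 640 and 562 counts in the controls and 1297 and 896 in the vKO-labelled ones (log2 fold change 0.83, SE 0.22, adjusted p = 0.144 in edgeR). Efnb1, an ephrin ligand, had 167 and 208 counts against 390 and 288 (log2 fold change 0.84, SE 0.20, adjusted p = 0.103 in edgeR). Ntn4, a netrin of basement membranes, had 91 and 191 counts against 271 and 212 (log2 fold change 0.80, SE 0.25). The other genes of highest level per kb were Neo1 and Ntn5 (log2 fold changes -0.06 and 0.00), Plxnb2 and Sema5b (0.04 and 0.13) and Epha10 and Efna3 (0.16 and 0.03). Unc5a, a netrin receptor, had 126 and 94 counts against 46 and 32 (log2 fold change -1.54, SE 0.34, adjusted p = 0.0819 in edgeR). Sema6b had the highest log2 fold change of these families at 1.12 (SE 0.58), on 17 and 10 counts against 42 and 19. Its groups overlapped in CPM. Unc5a and Sema6b were named after their values were seen.

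**Figure D3:**
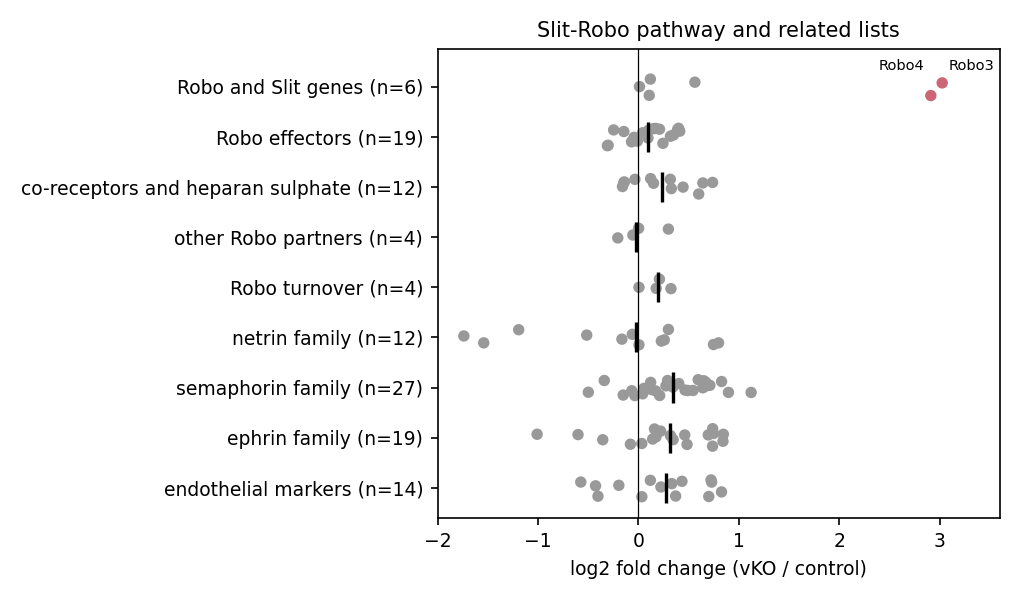
Log2 fold change (libraries labelled vKO over control) of each tested gene in the lists named on the left; black bars are list medians (none is drawn for the Robo and Slit genes) and red marks an adjusted p under 0.05. Robo3 and Robo4 are the marked genes, at 3.03 and 2.91, while the effectors have a median of 0.10 and the endothelial markers of 0.28.

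Endothelial markers were read beside Robo4, itself known as an endothelial gene. In bulk tissue, more cells of a type and more RNA per cell cannot be told apart. Of 18 listed markers 14 were tested, 0 were called in edgeR, against 0.393% of all genes, and the median log2 fold change was 0.28. That median was 0.18 without control replicate 1, and 0.12 with the GC offset. The listed markers summed to 69.6 and 52.9 CPM in control and to 75.7 and 66.5 CPM in the vKO-labelled libraries, and these sums overlapped. Vwf and Sox17 made up 50.2% to 65.9% of the sum. Without these 2 genes, a choice made after seeing the data, the other 16 summed to 23.7 and 26.3 CPM in control and to 33.9 and 32.6 CPM in the vKO-labelled libraries, which did not overlap. None of the 18 was at 0 in any library, but Emcn, Icam2, Mmrn2 and Plvap were too low to be tested, at 1 to 14 counts a library. At an unadjusted p under 0.05 in edgeR there were 4 of the 14 tested, against 14.1% of all genes. These were Cdh5, Flt1 and Eng higher (log2 fold changes 0.83, 0.70 and 0.72) and Sox17 lower (-0.57), named after their values were seen. The groups were apart for 5 markers higher and 2 lower, against 22.7% and 22.6% of all genes. Vwf, Cldn5 and Sox18, with Sox17 the markers of highest level per kb, had log2 fold changes of 0.43, 0.22 and 0.03.

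Robo4 was also expressed as a percentage of these markers, which restates the level it was picked on. Of the summed level of all 18 it was 0.369% and 1.26% in control and 4.98% and 5.24% in the vKO-labelled libraries. Of the 16 without Vwf and Sox17 it was 1.08% and 2.53% against 11.1% and 10.7%. Against Cdh5, the VE-cadherin gene, it was 10% and 22.5% in control and 87.1% and 63.1% in the vKO-labelled libraries. Pecam1, which encodes an adhesion molecule of all endothelium, had 20 and 17 counts in the controls and 26 and 7 in the vKO-labelled ones (log2 fold change -0.20, SE 0.63). Lymphatic markers were higher in sum in the vKO-labelled libraries, at 31.7 and 26.3 CPM against 23.6 and 18.6. Of 3 tested, 0 were called in edgeR, against 0.393% of all genes. At an unadjusted p under 0.05, which 14.1% of all genes had, were 2, Prox1 and Pdpn (log2 fold changes 0.46 and 0.99). Flt4 was the largest part of that sum, and its groups overlapped, at 16.7 and 11.6 CPM against 14 and 8.87. Lyve1 was not tested, with 1 and 0 counts in the controls and 4 and 5 in the vKO-labelled libraries. Sertoli cell markers were also higher in sum, at 1499 and 1318 CPM against 1048 and 1101. Of these 11 markers, 1 was called higher (Wt1, log2 fold change 0.71, adjusted p = 0.0418 in edgeR), as were 0.279% of all genes. At an unadjusted p under 0.05 were 8 of them, all higher, against 14.1% of all genes in either direction, 9 were apart and higher, against 22.7%, and 11 of 11 had a log2 fold change above 0, against 50.3%. Germ cell markers were lower in sum, at 4913 and 4971 CPM against 6207 and 5417, with 0 of 10 called in edgeR. The largest parts of that sum were Prm2 and Tnp2 (log2 fold changes -0.29 and -0.25). At an unadjusted p under 0.05 in edgeR were 3 of the 10, all lower, against 14.1% of all genes in either direction. The groups were apart and lower for 6, against 22.6% of all genes. Of the 10 markers 2 had a log2 fold change above 0, Acr and Acrv1 (0.23 and 0.06), so the sum does not stand for every germ cell marker. What part any of these cell types has in the Robo3 and Robo4 values was not tested.

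**Figure D4:**
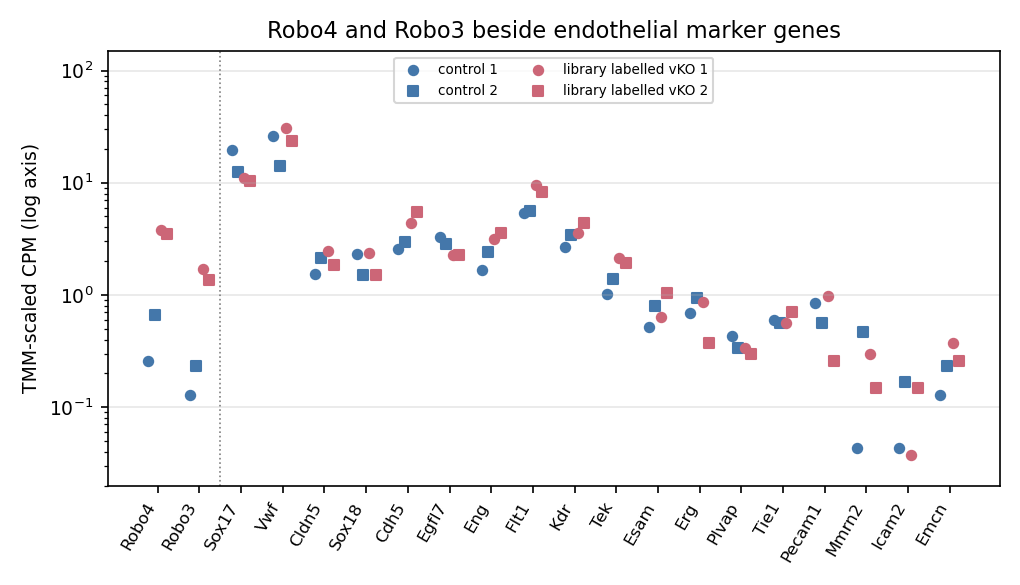
TMM-scaled CPM (log axis) of Robo4 and Robo3, left of the dotted line, and of the 18 endothelial markers in order of level per kb, in each library; blue is control, red the vKO-labelled libraries, circles replicate 1 and squares replicate 2. Robo4 has means of 0.462 CPM in control and 3.63 CPM in the vKO-labelled libraries. Of the 14 tested markers 5 were apart and higher and 2 apart and lower, against 22.7% and 22.6% of all genes. Others, such as Pecam1 and Esam, overlap between groups.

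The genes whose pattern over the 4 libraries was nearest to that of Robo4 were sought among 17825 tested genes with a mean of at least 1 CPM. Likeness was the root mean square difference of log2(CPM + 0.5) deviations from each gene's own mean, and all of these genes share the 4 libraries. The nearest was Lrg1, a secreted leucine-rich glycoprotein (difference 0.092), with 68 and 131 counts in the controls and 459 and 391 in the vKO-labelled ones. Next was Wnt4, a secreted signalling protein (0.101), with 1 and 6 counts against 60 and 52. Serpina3n, a protease inhibitor, followed (0.144), with 17 and 30 counts against 166 and 130. Then came Tnfrsf12a, a receptor of the TNF family (0.175), with 14 and 32 against 108 and 112, and Kcnh3, a potassium channel gene (0.232), with 11 and 25 against 94 and 78. In all 5, as in Robo4, control replicate 1 had the lowest count and the groups did not overlap, where 45.3% of all genes tested were apart. The 5 were chosen for likeness to Robo4, so nothing is read from that shared pattern.

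The transcripts were also read for GGACT, the most common core of the N6-methyladenosine consensus, on the sense strand of the longest M21 transcript. The Slit transcripts were dense in it, with 2.29 per kb in Slit1, 2.01 in Slit2 and 2.30 in Slit3, against a median of 1.02 per kb over all genes tested. The Robo transcripts were nearer that median, with 1.01 per kb in Robo4 (5 matches in 4952 bases), 1.40 in Robo3, 0.926 in Robo1 and 0.698 in Robo2. No methylation was measured here, and a match shows only the letters.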

How the data were processed

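The authors deposited 1 table of raw read counts per gene for the 4 libraries. Per the submitters' processing notes HISAT2 2.1.0 and HTSeq 0.6.1p1 were used; genome build, annotation, strand setting and filters are not given in the sources used here. Per the file headers the table also holds the authors' mean normalized signal, log2 fold change with its error, test score (the fold change over its error), p-value and adjusted p-value, with column names of DESeq2. Recomputing that mean from the counts gave a largest relative difference of 4.93e-10. No gene had fewer than 10 counts in all.

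Counts were tested over the whole table with edgeR 4.0.16 (limma 3.58.1, R 4.3.3): TMM scaling, the filterByExpr minimum, genotype as the single term of a robust quasi-likelihood fit, prior count 0.125, and Benjamini-Hochberg adjustment over 21132 genes, called under 0.05. The SE is the absolute log2 fold change over the square root of F. The script was tested on simulated data. Replicates differed beyond sampling noise (chi-square per degree of freedom 19.4 in control, 7.84 in the other group). Positions, exon lengths and transcripts are from GENCODE M21 (GRCm38), whose build may differ from that of the authors, joined by gene identifier. RefSeq promoter windows matched 6 of the 7 members by symbol. The printed stretches omit bases that either source counts as transcribed. Counts carry no molecular identifiers, so intervals cover counting error only.

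The members and lists were chosen with earlier results of these data known. Named genes are the members, the tested coding genes next to Robo4, the 3 highest by level per kb and any called gene of each list (4 for endothelial markers), and the 5 nearest Robo4 in pattern; others are marked. Lists of pericyte, peritubular myoid, Leydig, macrophage, erythrocyte and duct markers held no called gene in edgeR; their median log2 fold changes were 0.14, -0.05, 0.38, 0.04, 0.76 and -0.30. Over the alternatives run these ranged from -0.034 to 0.23, -0.26 to 0.48, 0.28 to 0.50, -0.15 to 0.30, 0.41 to 1.07 and -0.40 to -0.23. In edgeR 14.1% of all genes had an unadjusted p under 0.05. Higher at that p were 1 of 7 tested myoid, 4 of 8 Leydig, 1 of 8 macrophage and 3 of 4 erythrocyte markers. Of the duct markers 1 of 4 was lower at that p, and 0 of 5 pericyte markers reached it. The median of germ cell markers was -0.14 and ranged from -0.17 to -0.05. Alternatives were other scalings, filters, a DESeq2 1.42.0 Wald test, a fit without robust estimation, a GC offset, a replicate block, a prior count of 2 and leaving out each library.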

Additional observations from a re-analysis of the deposited data

How the results depend on the processing

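Robo4 was called higher under every alternative that tested it; its log2 fold change ran from 2.43 (without control replicate 1) to 3.80 (without control replicate 2). A minimum of 10 counts in every library removed Robo2, Robo3 and Robo4, which left 0 members called. The DESeq2 Wald test called 1, giving Robo3 (log2 fold change 3.07) no adjusted p. Leaving out 1 library gave 1 to 3 members called, and fits with a lone library assume that it varies like the others. On leaving out 1 library, log2 fold changes ran from -0.12 to 0.30 for Robo1, from -0.95 to 0.58 for Slit2 and from -0.17 to 0.36 for Slit3. They turned negative for Robo1 and Slit3 without vKO replicate 1 and for Slit2 also without control replicate 1 (-0.20). Slit2 was at -0.11 with the replicate block and at -0.059 with GC offset plus block, and Slit3 at -0.033 with the offset and at -0.051 with both. The cause was not tested.

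Genes called higher and lower over the whole table numbered 59 and 24. They were 181 and 37 with library totals alone, 137 and 80 with the DESeq2 Wald test, 90 and 67 with the GC offset, and 15 lower without robust estimation. Leaving out 1 library gave 30 to 1048 higher and 5 to 523 lower. Over all genes tested, the median change (log2) was 0.00, and 0.07 with library totals alone. The median of the 4 pathway lists together was 0.22 with library totals alone, and ran from 0.044 to 0.21 on leaving out 1 library.

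The labels do not say what the shared replicate numbers mark, and deviations of same-numbered libraries correlated at 0.0929 across 17826 genes over only 2 pairs, so they were not taken as pairs. A replicate block called 627 genes higher and 390 lower, and block plus GC offset called 279 and 301. Slit1 was called with the block (log2 fold change 0.56, adjusted p 0.0184 in edgeR) and not with block plus offset (0.37, adjusted p 0.14). It was also called without control replicate 1 (log2 fold change 0.76), a fit with a lone control library. Low counts limit Robo2, Robo3 and Slit2 most.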
